A study of Rattus norvegicus with 40 samples.

Results

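The interaction of TCDD and rat strain in liver was taken as the response of Long-Evans (Turku/AB) rats (L-E) minus the response of Han/Wistar (Kuopio) rats (H/W). A response is the log2 signal after TCDD, the dioxin used here, minus the log2 signal after corn oil, so a positive interaction means that TCDD moved a gene further up, or less far down, in L-E than in H/W. The comparison used 16 of the 40 arrays of the series, in 4 groups of 4: L-E rats given TCDD, L-E rats given corn oil, H/W rats given TCDD and H/W rats given corn oil. All were adult males, dosed once by gavage with 100 µg/kg TCDD in corn oil or with corn oil alone, and their livers were taken 19 h later for Affymetrix RAE230A arrays. L-E rats carry the wild-type aryl hydrocarbon receptor (AHR), and H/W rats carry an AHR that lacks a part of its transactivation domain. A further 16 arrays from LnC rats (wild-type AHR) and LnA rats (the H/W form of the AHR), lines bred from crosses of the same strains and dosed in the same way, were used as a second set. Each cage held a single treatment group, so cage and treatment cannot be told apart, and neither can the AHR allele and the other genetic differences between L-E and H/W.

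The AHR is a ligand-activated transcription factor that pairs with ARNT and binds a short DNA core, GCGTG, near its target genes. TCDD is a very potent ligand of it and induces drug-metabolizing enzymes such as CYP1A1 in the liver of most mammals. L-E rats are very sensitive to the lethality of TCDD and H/W rats are highly resistant, which is why their responses were set against each other. Of several probe sets for a gene, the brightest on average in these 16 arrays stood for it. A gene was called where its p from limma, after Benjamini-Hochberg adjustment across the 10411 genes, was under 0.05. Values are given as log2 signal, with the standard error (SE) of the fit for differences and the SD over 4 rats for group means.

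One of the 16 arrays stood apart, and leaving it out changed the number of called genes more than leaving out any other. The array of H/W corn oil replicate 3 had a difference of the 3′ and 5′ control probe sets of Gapdh of 0.64, against 0.13 to 0.34 in the other H/W corn oil arrays, and the highest such difference for beta-actin of the 16 arrays (2.37). Its Cyp1a1 signal was 8.60, against 2.38 to 2.89 in the other H/W corn oil rats. It was still placed with the corn oil rats by 246 genes called in both LnC and LnA in the same direction: their median shift in the direction of TCDD was 0.10 in that array, 0.58 to 0.64 in H/W TCDD rats, and between -0.03 and 0.02 in the other H/W corn oil rats. The other 3 H/W corn oil arrays had the highest mean signals over the lowest 40% of genes (2.60 to 2.65, against 2.51 to 2.58 in the other 13 arrays). What part these differences had in the results was not tested. Counts are therefore also given without this array.

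The interaction was called for 9 of 10411 genes (0.0864%), 5 with a positive and 4 with a negative value, and for 3 of them (Ackr3, Slc17a1 and Ttpa) the adjusted p was also under 0.01. An unadjusted p under 0.05 was found for 1010 genes (9.7%), 685 of them positive (6.58%) and 325 negative (3.12%). Without H/W corn oil replicate 3 the interaction was called for 103 genes, 84 positive and 19 negative, which included all 9, and 3469 genes had an unadjusted p under 0.05. Of these, 2307 lay in the lowest 40% of genes by mean signal, 2297 of them with a positive value. With that array and the lowest 40% of genes left out, 41 genes were called, 26 positive and 15 negative, again with all 9 among them. Leaving out any other single array gave 3 to 18 called genes, so the count was unstable, with the widest change for H/W corn oil replicate 3.

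Ackr3, an atypical chemokine receptor that binds and clears CXCL12, showed the largest interaction of the 9. Its log2 signals were 5.30, 5.18, 6.16 and 5.18 in L-E TCDD rats, against 2.90, 2.88, 3.23 and 3.01 in L-E corn oil rats. H/W TCDD rats gave 3.20, 3.31, 3.17 and 3.36, against 3.15, 3.03, 2.99 and 3.04 in H/W corn oil rats. Every L-E TCDD rat lay far above the other 12, which lay at the low end of the scale: those 3 group means were under 3.52, the lowest median signal of the 16 arrays, so the size of the difference depends on that end of the scale. The response was 2.45 ± 0.17 (SE) in L-E (adjusted p = 2.2e-06 by limma) and 0.21 ± 0.17 in H/W (adjusted p = 0.47 by limma). The interaction was 2.24 ± 0.24, with a 95% interval of 1.72 to 2.77 and an adjusted p of 0.0030 by limma.

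Slc17a1 and Slc17a3, neighbouring genes that encode sodium-phosphate cotransporter family members that carry urate and other organic anions, showed the opposite pattern. Slc17a1 gave 7.88, 8.15, 7.83 and 8.04 in L-E TCDD rats, against 7.81, 7.64, 7.69 and 8.08 in L-E corn oil rats. It gave 9.91, 9.67, 9.72 and 9.53 in H/W TCDD rats, against 8.19, 8.28, 8.32 and 8.09 in H/W corn oil rats. It rose by 1.49 ± 0.11 in H/W (2.80-fold, adjusted p = 3.4e-06 by limma), with no overlap between treated and control rats. In L-E the groups overlapped and the response was 0.17 ± 0.11 (adjusted p = 0.50 by limma). The interaction of Slc17a1 was -1.32 ± 0.15 (adjusted p = 0.0030 by limma), and it was the only member of the 41 gene lists examined whose interaction was called. Slc17a3 stood next to it with a response of 0.36 ± 0.13 in L-E and 1.39 ± 0.13 in H/W and an interaction of -1.03 ± 0.19, which missed the threshold (adjusted p = 0.077 by limma). Without H/W corn oil replicate 3 the interaction of Slc17a3 was -1.09 with an adjusted p of 0.036 by limma. The nearest tested histone genes on either side, H2bc1 and H3c1, had interactions of 0.17 and 0.05.

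The promoters of these genes are shown because the pair on chromosome 17 moved together and because the AHR core can be looked for in them. Sequences are from RefSeq (GRCr8), run from 250 bases before to 50 bases after the annotated start, and are given 5′ to 3′ on the gene's own strand, with each GCGTG, or CACGC where the core lies on the other strand, in capitals. The windows are chr9:98247104-98247403 (+) for Ackr3, chr17:41681125-41681424 (-) for Slc17a1, chr17:41723060-41723359 (-) for Slc17a3 and chr1:30919625-30919924 (+) for Exoc3, a gene described below.
Ackr3: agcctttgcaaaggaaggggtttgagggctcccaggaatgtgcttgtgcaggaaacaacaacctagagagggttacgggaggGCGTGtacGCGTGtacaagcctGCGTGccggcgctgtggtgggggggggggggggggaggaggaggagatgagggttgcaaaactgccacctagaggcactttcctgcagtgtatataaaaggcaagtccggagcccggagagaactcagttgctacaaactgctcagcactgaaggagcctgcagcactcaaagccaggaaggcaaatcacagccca
Slc17a1: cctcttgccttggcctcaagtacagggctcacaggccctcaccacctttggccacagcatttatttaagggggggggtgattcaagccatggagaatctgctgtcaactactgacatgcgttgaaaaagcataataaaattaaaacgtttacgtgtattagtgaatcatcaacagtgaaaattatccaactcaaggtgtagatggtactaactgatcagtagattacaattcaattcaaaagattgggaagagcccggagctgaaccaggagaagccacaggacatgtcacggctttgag
Slc17a3: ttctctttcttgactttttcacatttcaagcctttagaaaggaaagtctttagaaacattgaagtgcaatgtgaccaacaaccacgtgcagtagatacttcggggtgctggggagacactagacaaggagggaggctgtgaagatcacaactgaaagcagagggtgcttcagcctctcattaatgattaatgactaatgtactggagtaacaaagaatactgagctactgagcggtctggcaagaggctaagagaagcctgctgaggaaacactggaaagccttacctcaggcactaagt
Exoc3: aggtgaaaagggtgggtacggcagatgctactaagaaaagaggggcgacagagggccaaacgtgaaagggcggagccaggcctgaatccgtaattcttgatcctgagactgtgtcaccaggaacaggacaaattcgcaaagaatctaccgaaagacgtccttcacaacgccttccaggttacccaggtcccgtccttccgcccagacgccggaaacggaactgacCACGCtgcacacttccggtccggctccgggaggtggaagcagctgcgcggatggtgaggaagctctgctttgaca
The core was present 3 times in the Ackr3 window and 1 time in the Exoc3 window, and was absent from those of Slc17a1 and Slc17a3. Of the 9 called genes, 6 had a promoter in the table and 2 of these held the core. It was found in 4036 of the 8610 windows of tested genes (46.9%), and in 179 of 377 windows (47.5%) of genes called higher after TCDD in L-E, so its presence alone does not set a gene apart.

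Ttpa and Cpb2 are both expressed mainly by hepatocytes. Ttpa, the alpha-tocopherol transfer protein, which loads vitamin E for export from the liver, gave 10.98, 10.75, 10.67 and 10.74 in L-E TCDD rats, against 11.65, 11.61, 11.68 and 11.50 in L-E corn oil rats. It gave 11.57, 11.63, 11.78 and 11.61 in H/W TCDD rats, against 11.63, 11.49, 11.51 and 11.76 in H/W corn oil rats. Only the L-E TCDD group was set apart, and it did not overlap with any other. Ttpa fell by 0.83 ± 0.08 in L-E (adjusted p = 2.3e-05 by limma), while its response in H/W was 0.05 ± 0.08, and the interaction was -0.87 ± 0.11 (95% interval -1.11 to -0.64, adjusted p = 0.0053 by limma). Cpb2, the plasma carboxypeptidase that slows fibrinolysis, had group means of 13.16 ± 0.08 in L-E TCDD rats, 12.55 ± 0.08 in L-E corn oil rats, 12.27 ± 0.08 in H/W TCDD rats and 12.14 ± 0.07 in H/W corn oil rats (SD, n = 4 each). It was thus higher in L-E than in H/W with corn oil already (by 0.41, adjusted p = 0.0014 by limma) and rose in L-E by 0.62 ± 0.05, against 0.13 ± 0.05 in H/W. Its interaction of 0.49 ± 0.08 was the smallest of the 9 (adjusted p = 0.042 by limma).

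Exoc3, a subunit of the exocyst, which tethers secretory vesicles at the plasma membrane, was the only one of the 9 whose response was called in both strains. It gave 9.58, 9.69, 9.83 and 9.95 in L-E TCDD rats, against 6.52, 6.80, 6.42 and 6.55 in L-E corn oil rats. It gave 9.05, 8.78, 9.15 and 9.10 in H/W TCDD rats, against 6.97, 6.62, 6.81 and 6.75 in H/W corn oil rats. The controls of the strains overlapped, and every L-E TCDD rat was above every H/W TCDD rat. Exoc3 rose 9.12-fold in L-E and 4.69-fold in H/W, and the interaction was 0.96 ± 0.15 (adjusted p = 0.042 by limma). Its other 2 probe sets gave interactions of 0.85 ± 0.29 and 0.89 ± 0.24.

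For 4 of the 9 genes the strains already differed with corn oil, in the direction opposite to the interaction, and for Lig3, Arhgef11 and Klk1c9 the strains were not called different after TCDD. Lig3, DNA ligase III, gave 5.95, 5.89, 5.89 and 5.89 in L-E TCDD rats, against 6.41, 6.48, 6.51 and 6.80 in L-E corn oil rats. H/W TCDD rats (5.94 to 6.20) overlapped with H/W corn oil rats (5.77 to 6.10). The L-E corn oil rats were the group apart, 0.61 above H/W corn oil rats (adjusted p = 0.0019 by limma), and the interaction was -0.75 ± 0.12 (adjusted p = 0.045 by limma). A second, dimmer probe set of Lig3 gave 0.07 ± 0.30, so the probe sets disagree. Arhgef11, a guanine nucleotide exchange factor, showed the same form at a low signal, with means of 3.68 ± 0.02 in L-E TCDD rats, 4.19 ± 0.11 in L-E corn oil rats, 3.85 ± 0.15 in H/W TCDD rats and 3.72 ± 0.06 in H/W corn oil rats (SD, n = 4 each). Its interaction was -0.63 ± 0.10 (adjusted p = 0.042 by limma).

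Plrg1, a component of the spliceosome, gave 8.58 ± 0.15 in L-E TCDD rats and 7.98 ± 0.13 in L-E corn oil rats, and 8.20 ± 0.07 in H/W TCDD rats and 8.41 ± 0.17 in H/W corn oil rats (SD, n = 4 each). The order of the strains was thus reversed by treatment, with L-E above H/W by 0.38 after TCDD (adjusted p = 0.042 by limma) and below it by 0.42 after corn oil (adjusted p = 0.033 by limma). The interaction was 0.80 ± 0.13 (adjusted p = 0.045 by limma). Klk1c9, of the rat tissue kallikrein family, fell by 0.46 ± 0.08 in H/W (adjusted p = 0.0052 by limma) and its response in L-E was 0.21 ± 0.08 (adjusted p = 0.15 by limma). Its interaction of 0.67 ± 0.11 was the called value nearest the threshold (adjusted p = 0.045 by limma), and its probe set is of a type that can share probes with close relatives, so the member measured is uncertain. Just past the threshold stood Bambi (adjusted p = 0.054 by limma). Of the 9, Ackr3, Slc17a1 and Ttpa were called in each of the 16 fits that left out 1 array. The other 6 missed the threshold in 9 to 13 of them, with no change of sign. All 9 had the same sign on the 4 arrays of scan day 1 and on the 10 arrays of scan day 2. The genes had been called on these same arrays, so the shared sign is not independent evidence.

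**Figure D1:**
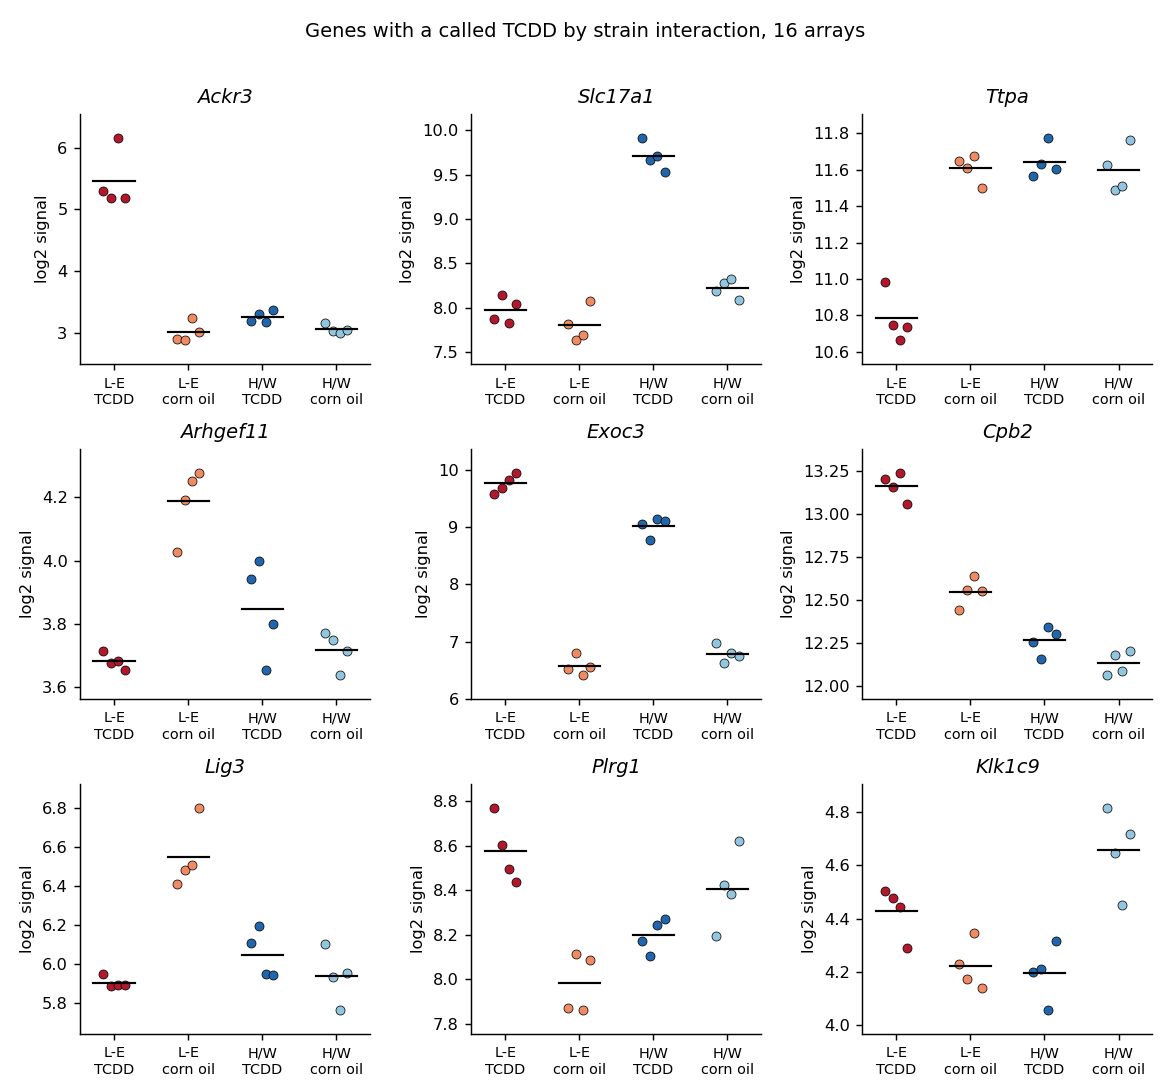
Log2 signal (y axis) of the 9 called genes in each rat, by group (x axis, 4 rats each); the horizontal line is the group mean and each panel has its own scale. The L-E TCDD rats stand apart for Ackr3 and Ttpa, the H/W TCDD rats for Slc17a1, and the L-E corn oil rats for Lig3 and Arhgef11.

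Another 7 genes had an adjusted p between 0.05 and 0.1 and are named because of that value. Bambi, a decoy receptor that dampens TGF-beta and BMP signalling, gave 4.50, 5.68, 5.26 and 5.05 in L-E TCDD rats, against 2.97, 3.01, 2.78 and 3.74 in L-E corn oil rats. H/W TCDD rats (3.01 to 3.30) and H/W corn oil rats (2.85 to 3.11) overlapped at the low end of the scale, as for Ackr3. Its interaction was 1.85 ± 0.32. The transcription factor Maf had an interaction of -1.57 ± 0.28 and the repressor Zbtb18 one of -0.84 ± 0.16. Both fell in L-E, by 1.32 for Maf and by 0.81 for Zbtb18, and neither was called in H/W (responses of 0.25 and 0.02). With the probe sets of each gene averaged, the interactions were -0.79 ± 0.23 for Maf and -0.89 ± 0.37 for Zbtb18 (adjusted p = 0.30 and 0.47 by limma). Rnf139, an endoplasmic reticulum ubiquitin ligase, had an interaction of -0.64 ± 0.12. Sod1, the copper-zinc superoxide dismutase, and Mrpl15, a mitochondrial ribosomal protein, had positive values of 0.40 ± 0.08 and 0.73 ± 0.14, with responses called in L-E and not in H/W. Slc17a3 is the remaining one. Without H/W corn oil replicate 3 all 7 were called. With the lowest 40% of genes left out as well, Sod1 and Mrpl15 were not called and the others were.

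Genes called after TCDD in both strains moved in the same direction in both. TCDD was called higher for 432 genes (4.15%) and lower for 420 genes (4.03%) in L-E, against 152 (1.46%) and 134 (1.29%) in H/W. Of these genes, 205 were called in both strains, all in the same direction, 647 in L-E alone and 81 in H/W alone. Without H/W corn oil replicate 3 the counts were 894 in L-E and 2217 in H/W, and with the lowest 40% of genes left out as well they were 1050 in L-E and 549 in H/W, so the order of the strains turned round in the first case. Among the 647 genes called in L-E alone, 551 (85.2%) had the same sign in H/W, with a median response in the L-E direction of 0.60 in L-E and 0.21 in H/W, values that the choice of the genes helps to set. The interaction itself was called for 6 of these 647, for 2 of the 81 and for 1 of the 205, so for the others a difference between the strains was not shown.

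**Figure D2:**
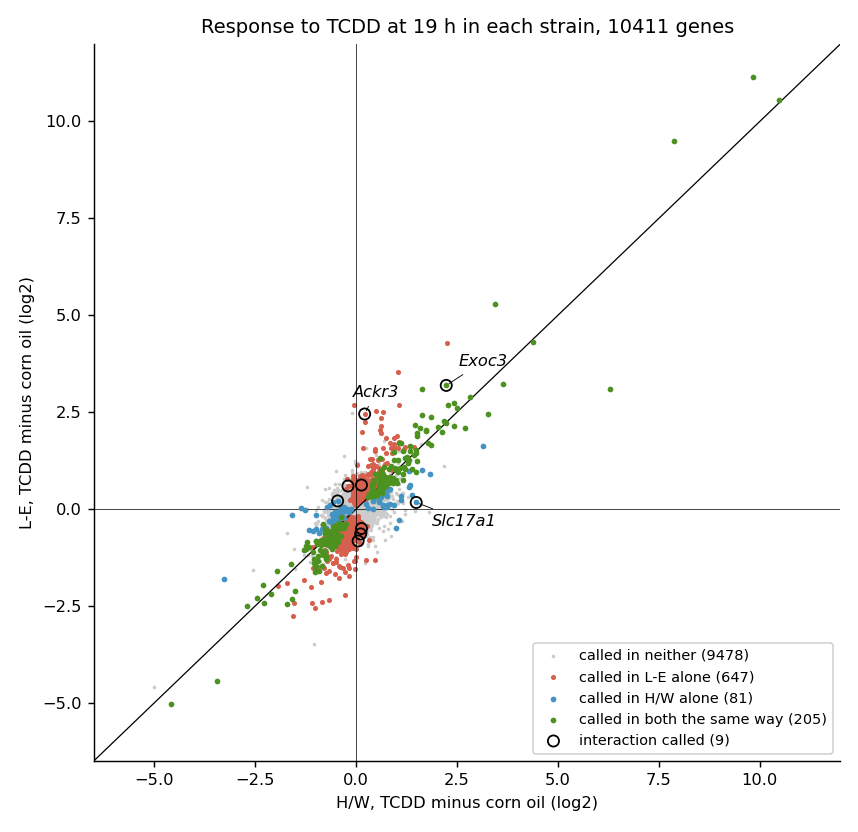
Response to TCDD of 10411 genes in L-E (y axis) and H/W (x axis), each as the log2 signal in TCDD rats minus that in corn oil rats, coloured by the strain in which it was called; the line marks equal responses and circles mark the 9 genes with a called interaction. Most called genes lie in the quadrants where both strains moved the same way, and Slc17a1 and Ackr3 lie near an axis.

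Genes chosen on other arrays gave a comparison that does not rest on the choice. In LnC, 668 genes were called after TCDD. Taken in the direction of their change in LnC, their median response was 0.52 in L-E (quartiles 0.27 and 0.90) and 0.34 in H/W (quartiles 0.13 and 0.70), and 481 of them (72%) moved further in L-E. Of the 403 genes called in LnA, which carries the H/W form of the AHR, the median was 0.55 in L-E and 0.40 in H/W, and 294 (73%) moved further in L-E. The larger response in L-E thus did not depend on whether the genes came from the sensitive or the resistant line. Of those chosen in LnC, 219 of 297 genes that fell (73.7%) and 262 of 371 that rose (70.6%) moved further in L-E. The background differs between these directions. For a gene that rises, moving further in L-E is a positive interaction, which 71.3% of all tested genes had. In the 60% of genes with the highest mean signal that share was 58.3%. The genes that rose were thus not above the share of all tested genes. For a gene that falls it is a negative interaction, the less common sign over all tested genes. Without H/W corn oil replicate 3 the shares that moved further in L-E, over both directions, were 69.9% for the LnC genes and 70% for the LnA genes. The genes are not independent of each other, and these are descriptions over the same 16 rats.

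The best-known AHR targets responded in both strains, and none had a called interaction in the fit used here. Of the 11 genes of the AHR-inducible list 8 were measured, of which 7 rose and 1, Fmo1, fell in both strains. Cyp1a2, a hepatic monooxygenase, gave 15.25 to 15.49 in L-E TCDD rats, against 14.06 to 14.20 in L-E corn oil rats, and 15.32 to 15.36 in H/W TCDD rats, against 13.94 to 14.29 in H/W corn oil rats. Its interaction of -0.03 had a 95% interval of -0.25 to 0.19, so a difference in response of more than 0.25 is outside that interval. Cyp1a1 reached a mean of 14.53 in TCDD rats of both strains, but its control values spanned 2.13 to 6.16 in L-E and 2.38 to 8.60 in H/W, and the 95% interval of its interaction was -3.70 to 3.87. That interaction was 0.09 with all arrays and -1.43 without H/W corn oil replicate 3. Tiparp, a poly-ADP-ribose polymerase that feeds back on the AHR, had an interaction of -0.05 with an interval of -1.25 to 1.14.

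Cyp1b1 and Aldh3a1 stood between these. Cyp1b1 gave 12.21, 12.57, 13.55 and 13.49 in L-E TCDD rats, against 3.79, 3.35, 3.39 and 3.35 in L-E corn oil rats. It gave 11.58, 11.08, 12.38 and 11.80 in H/W TCDD rats, against 3.54, 3.84, 4.15 and 3.82 in H/W corn oil rats. All rats given TCDD were far above the controls, and the H/W values overlapped with the lower L-E values. The interaction was 1.61 ± 0.44 (adjusted p = 0.26 by limma), and for this gene and Aldh3a1 the L-E corn oil mean lay under the lowest array median. With array weights the interaction of Cyp1b1 was called (adjusted p = 0.037 by limma). Aldh3a1, an aldehyde dehydrogenase, responded by 11.14 ± 0.25 in L-E and 9.83 ± 0.25 in H/W, with an interaction of 1.31 ± 0.35 (adjusted p = 0.26 by limma). In the lines the interactions of these genes were 1.41 for Cyp1b1 and 0.91 for Aldh3a1, on the same side of 0 as in the strains. Their unadjusted p of 0.0030 and 0.0020 by limma did not pass the adjustment (0.60 and 0.54).

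Nqo1, a quinone reductase, had the largest negative value of the list, and its controls differed. It gave 12.61, 12.64, 12.32 and 12.55 in L-E TCDD rats, against 9.66, 9.96, 9.24 and 8.82 in L-E corn oil rats. It gave 11.14, 11.12, 11.61 and 11.92 in H/W TCDD rats, against 3.66, 6.83, 5.32 and 4.84 in H/W corn oil rats. L-E corn oil rats were thus 4.26 above H/W corn oil rats (adjusted p = 5.1e-04 by limma), while after TCDD the difference was 1.08 (adjusted p = 0.34 by limma). The interaction was -3.18 ± 0.69 (adjusted p = 0.13 by limma). It was called without H/W corn oil replicate 2, the array with the highest control value in H/W (adjusted p = 0.011 by limma). The interaction was also called in 1 fit over 8 groups and with array weights (adjusted p = 0.018 and 0.034 by limma). In the lines the responses of Nqo1 were alike, with 3.34 in LnC and 3.40 in LnA. Nfe2l2, the transcription factor of the oxidative stress response, had an interaction of 0.71 ± 0.31 and Fmo1, a flavin monooxygenase, one of -0.54 ± 0.25 (adjusted p = 0.48 and 0.52 by limma).

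**Figure D3:**
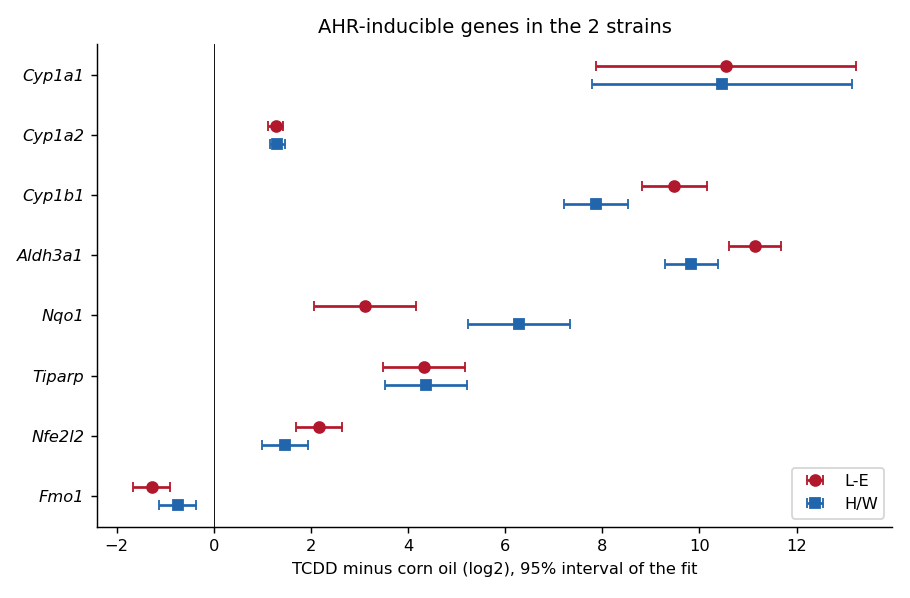
Response to TCDD (x axis, log2 signal in TCDD rats minus that in corn oil rats, with the 95% interval of the fit) of the 8 measured AHR-inducible genes in L-E (circles) and H/W (squares), n = 4 rats per group. The intervals of the strains overlap for Cyp1a1, Cyp1a2, Tiparp, Nfe2l2 and Fmo1, and are set apart for Cyp1b1 and Aldh3a1, with L-E further from 0, and for Nqo1, with H/W further from 0.

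The receptor itself and its partner were low on these arrays. Ahr gave 4.19, 5.71, 5.29 and 5.74 in L-E TCDD rats, against 2.99, 4.19, 3.91 and 3.92 in L-E corn oil rats. H/W TCDD rats gave 2.99 to 4.41 and H/W corn oil rats 2.97 to 3.07. Ahr rose in L-E by 1.48 ± 0.37 (adjusted p = 0.023 by limma), and its interaction was 1.01 ± 0.52 (adjusted p = 0.54 by limma). Whether the probes lie in the part of the transcript that differs in H/W was not checked, so this value does not compare receptor levels between the strains. Arnt stayed between 3.45 and 4.34 in all 16 rats, with an interaction of -0.29 ± 0.18.

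Genes that the study had chosen for RT-PCR were examined as well, and none had a called interaction. Elovl6, a fatty acid elongase, gave 8.13, 7.37, 8.24 and 8.29 in L-E TCDD rats, against 4.83, 4.16, 4.21 and 4.72 in L-E corn oil rats. It gave 5.66, 5.81, 6.64 and 5.77 in H/W TCDD rats, against 7.04, 3.89, 5.18 and 3.58 in H/W corn oil rats, where the control rats spanned the treated ones. Its interaction was 2.48 ± 0.82 (adjusted p = 0.36 by limma). Per2, a clock gene, rose in both strains (5.30 in L-E and 3.45 in H/W) with an interaction of 1.85 ± 1.05 (adjusted p = 0.56 by limma), or 1.04 without H/W corn oil replicate 3. Selenbp1, a selenium-binding protein, rose by 2.43 in L-E and 1.62 in H/W, and Chka, a choline kinase, by 2.89 in L-E and 2.82 in H/W. Cyp7a1, the rate-limiting enzyme of bile acid synthesis, ranged from 2.43 to 8.36 in L-E TCDD rats, against 8.07 to 10.70 in L-E corn oil rats, and from 3.00 to 10.38 in H/W TCDD rats, against 9.49 to 10.44 in H/W corn oil rats. Single rats of both TCDD groups lay among the controls, and its interaction of 0.42 had an SE of 2.21. The interactions of Crip2 (-0.47), Klf10 (-1.05) and Pik3r1 (1.22) had adjusted p of 0.42, 0.55 and 0.49 by limma. For Pik3r1 3 group means, all but that of H/W corn oil rats, lay under the lowest array median.

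Gene lists are described by counts and medians, with no test. The members named were singled out after their values were seen. Over all tested genes, 6.58% had a positive and 3.12% a negative interaction with an unadjusted p under 0.05, and the median interaction was 0.05. In the urea cycle and nitrogen handling list, 14 of 15 measured genes had a negative interaction, 5 of them with an unadjusted p under 0.05 (Slc38a4, Arg1, Glul, Slc25a15 and Otc) and none positive. The median response of the list was -0.87 in L-E and -0.34 in H/W, and 9 members were called lower in L-E, against 4 in H/W, where 4.03% of all genes were called lower in L-E and 1.29% in H/W. Arg1, the arginase that releases urea, averaged 12.10 in L-E TCDD rats and 13.38 in L-E corn oil rats, and 12.99 in H/W TCDD rats and 13.49 in H/W corn oil rats. It fell by 1.28 in L-E (adjusted p = 3.0e-04 by limma) and its response in H/W was -0.50 (adjusted p = 0.15 by limma), with an interaction of -0.78 (adjusted p = 0.31 by limma). Glul, glutamine synthetase, had the largest interaction of the 5, -1.18 (adjusted p = 0.32 by limma). Without H/W corn oil replicate 3, again 14 of 15 were negative, with a median of -0.42, against -0.37 in all 16 arrays. In the lines 11 of the 15 were negative, with a median of -0.10, against 0.02 over all tested genes.

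Amino acid catabolism and cholesterol synthesis leaned the same way. Of 44 amino acid catabolism genes, 33 had a negative interaction, 6 with an unadjusted p under 0.05 and none positive, with a median response of -0.38 in L-E and -0.18 in H/W. Gpt, alanine aminotransferase, fell by 1.52 in L-E (adjusted p = 0.0046 by limma), with a response of -0.18 in H/W and an interaction of -1.34 (adjusted p = 0.32 by limma). Of 21 cholesterol synthesis and uptake genes, 17 were negative, 4 with an unadjusted p under 0.05 (Hsd17b7, Srebf2, Idi1 and Fdft1). Idi1, isopentenyl-diphosphate isomerase, fell by 1.64 in L-E (adjusted p = 0.010 by limma), and its response in H/W was -0.27 (adjusted p = 0.63 by limma). In the lines 16 of the 21 were negative, with a median of -0.18, against -0.27 in the strains, but these were in part other genes. Srebf2 (0.03), Idi1 (0.15), Msmo1 (0.08), Sqle (0.28) and Mvk (0.14) were positive in the lines and negative in the strains. Pmvk, Tm7sf2, Lss and Mvd were negative in the lines and positive in the strains. Over all tested genes the median in the lines was 0.02. Among 17 bile acid synthesis genes 3 were negative with an unadjusted p under 0.05, led by Fgfr4, the hepatocyte receptor for a gut hormone released in response to bile acids, which rose in H/W by 1.06 (adjusted p = 0.013 by limma) and had a response of -0.28 in L-E (adjusted p = 0.61 by limma). Its interaction was -1.34 (adjusted p = 0.13 by limma).

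In the insulin and IGF axis, 5 of 21 genes were negative and 1 positive with an unadjusted p under 0.05. Ceacam1, which promotes insulin clearance by hepatocytes, rose in both strains, by 0.95 in L-E and 1.48 in H/W, with an interaction of -0.52 (adjusted p = 0.29 by limma, and 0.018 without H/W corn oil replicate 3). Without that array 3469 of 10411 genes had an unadjusted p under 0.05, which makes the adjustment milder for every gene. Insr, the insulin receptor, had means of 3.38 in L-E TCDD rats and 3.33 in L-E corn oil rats, and of 3.62 in H/W TCDD rats and 2.94 in H/W corn oil rats, all at the low end of the scale, with an interaction of -0.62. Irs1, its substrate, had an interaction of -0.51 and Ghr, the growth hormone receptor, one of -0.45. The median interaction of the list was -0.05, close to that of all genes.

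Over all genes 71.3% had a positive interaction, so a majority of positive values in a list is the background. The share was 90.7% in the lowest 40% of genes by mean signal and 58.3% in the other 60%. Of 34 proteasome and ubiquitin genes, 2 had every group mean under the lowest array median. In this list 27 were positive, 6 of them and none of the negative ones with an unadjusted p under 0.05, and the median response was 0.33 in L-E and 0.23 in H/W. The first 4 of these 6 in the order of p were Psmb9, Psmb8, Psmb10 and Psme2, subunits of the immunoproteasome and its activator, which interferon induces. Psmb9 averaged 8.59 in L-E TCDD rats and 8.07 in L-E corn oil rats, and 8.09 in H/W TCDD rats and 8.88 in H/W corn oil rats, with an interaction of 1.31 (adjusted p = 0.20 by limma, and 0.049 without H/W corn oil replicate 3). The adjusted p without that array has the limit given for Ceacam1. In bulk liver, fewer cells of a type and less RNA per cell cannot be told apart, and immune cell markers moved alongside. Of 18 macrophage and other immune cell markers, 16 had a positive interaction, 4 of them with an unadjusted p under 0.05 (Lyz2, Cd74, RT1-Da and S100a8), with a median of 0.24. Their summed signal, as log2, was 12.44 to 13.04 in L-E TCDD rats and 12.23 to 12.80 in L-E corn oil rats, and 11.38 to 11.78 in H/W TCDD rats and 11.80 to 12.14 in H/W corn oil rats, so that the H/W groups did not overlap while the L-E groups did. In each group 5 of the 18 had a mean under the lowest array median. In the lines the interactions of Lyz2, Cd74, RT1-Da and S100a8 were near 0 (0.09, -0.06, -0.10 and 0.03). The part of the immune cell markers in the immunoproteasome values was not tested. The summed signal of 10 hepatocyte markers lay between 17.91 and 18.11 in all 16 arrays.

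Of 29 cell cycle genes, 28 had a positive interaction, 6 with an unadjusted p under 0.05, but for 19 of the 29 every group mean was under the lowest array median, and of the lowest 40% of all genes 90.7% had a positive value. Ccnd1, cyclin D1, was among the brighter ones and fell in H/W by 0.65 (adjusted p = 0.034 by limma), with a response of 0.10 in L-E and an interaction of 0.75 (adjusted p = 0.29 by limma). In endoplasmic reticulum folding and degradation, 5 of 32 were positive and 2 negative with an unadjusted p under 0.05, and 11 members were called higher in L-E, against 2 in H/W, where 4.15% of all genes were called higher in L-E and 1.46% in H/W. Fatty acid synthesis and desaturation had 3 of 23 positive, with a median response of 0.11 in L-E and -0.12 in H/W. Oxidative phosphorylation (1 of 37), heat shock proteins (0 of 15) and one-carbon and amine metabolism (0 of 23) held few or no such genes. Of 40 measured genes that the study had singled out as affected in sensitive rats, 4 were positive and 11 negative with an unadjusted p under 0.05, with a median response of -0.63 in L-E and -0.22 in H/W. The study chose them on these samples, so they are not independent evidence of a direction.

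**Figure D4:**
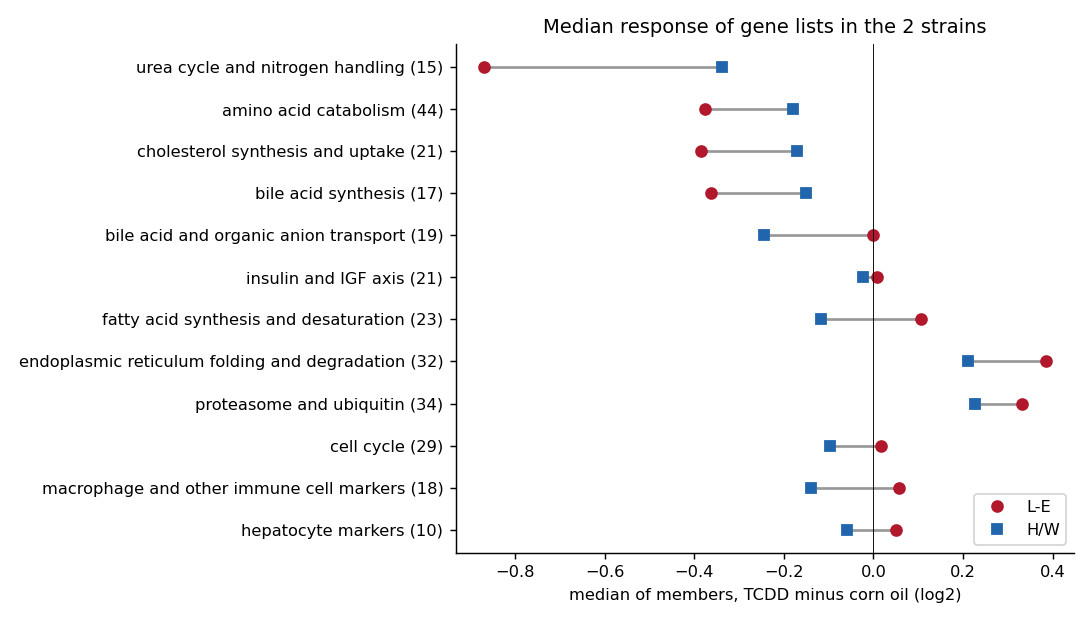
Median response to TCDD (x axis, log2 signal in TCDD rats minus that in corn oil rats) of 12 gene lists in L-E (circles) and H/W (squares), with the number of measured genes in brackets; no test was made of these medians. The urea cycle list shows the widest gap, with -0.87 in L-E and -0.34 in H/W.

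The lines gave the same contrast of AHR forms on other rats. Over all tested genes, the interaction in the lines was not correlated with that in the strains (Pearson r = 0.0017, Spearman rho = 0.0206). Likeness between the pairs is therefore described for single genes, and for the urea cycle and cholesterol lists above by counts and medians alone. For the pair LnC minus LnA the interaction was called for 14 genes (0.134%), and 1 gene, Slc17a1, was called in both pairs. Slc17a1 had a response of 0.04 ± 0.18 in LnC and 2.08 ± 0.18 in LnA, with an interaction of -2.05 ± 0.26 (adjusted p = 0.0044 by limma). Slc17a3 gave 0.01 in LnC and 2.20 in LnA, an interaction of -2.19 (adjusted p = 0.16 by limma). Ackr3 gave 1.93 in LnC and 0.38 in LnA, an interaction of 1.55 ± 0.46 with an unadjusted p of 0.0047 that did not pass the adjustment (0.69 by limma). Cpb2 gave 0.47 in LnC and -0.01 in LnA, an interaction of 0.48 ± 0.13 (unadjusted p = 0.0027, adjusted 0.60 by limma), almost the value of the strains.

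For the other 6 genes the 95% interval of the interaction in the lines included 0. Ttpa had responses of -0.32 in LnC and -0.45 in LnA, an interaction of 0.13 ± 0.15, and the difference between the pairs was called (-1.01 ± 0.18, adjusted p = 0.026 by limma in the fit of 32 arrays). Arhgef11 (-0.11), Lig3 (-0.01), Klk1c9 (-0.0044) and Plrg1 (0.16) had interactions near 0 in the lines, and Exoc3 had 0.40 ± 0.39. For these 5 the difference between the pairs was not called, with adjusted p of 0.28 to 0.92 by limma.

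**Figure D5:**
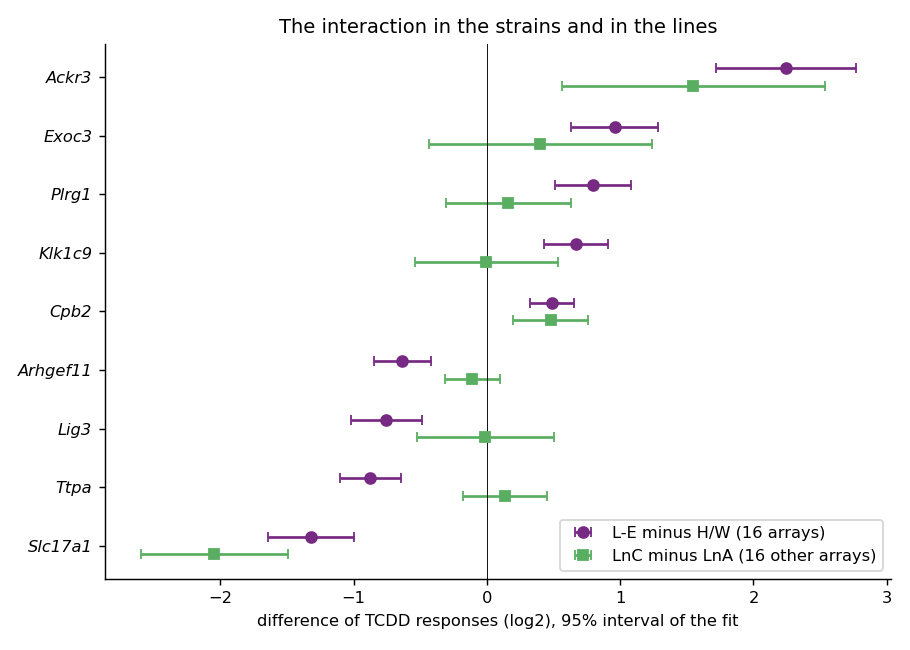
Difference of the responses to TCDD (x axis, log2, with the 95% interval of the fit) for the 9 called genes, as L-E minus H/W (circles) and as LnC minus LnA (squares), n = 4 rats per group. Slc17a1, Ackr3 and Cpb2 lie on the same side of 0 in both pairs with intervals that leave out 0, while Ttpa, Lig3, Klk1c9, Arhgef11, Plrg1 and Exoc3 have intervals in the lines that include 0.

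Of the 14 genes called in the lines, all but Slc13a2, Sebox and Lox had the same sign in the strains, which for some says little. Litaf (-0.02) and Pcp4l1 (0.07) were near 0 in the strains. Gsta3, C20h6orf136 and Tbce had an unadjusted p there of 0.40, 0.19 and 0.18 by limma. After Slc17a1, Mtus1 and Cyfip2 had the lowest p in the strains. Cyfip2, which binds the WAVE actin-regulating complex, had an interaction of 1.75 in the strains (responses of 2.35 in L-E and 0.60 in H/W, adjusted p = 0.17 by limma) and of 2.07 in the lines (adjusted p = 0.0040 by limma). Mtus1, a microtubule-associated protein, had -0.69 in the strains and -0.93 in the lines (adjusted p = 0.12 and 0.041 by limma). Slc13a2, a dicarboxylate cotransporter, had opposite values, 1.25 in the strains and -1.95 in the lines, and Sebox, a homeobox gene, had -0.34 in the strains and 1.82 in the lines. For both the difference between the pairs was called (adjusted p = 0.0086 and 0.0012 by limma). Lox had -2.44 in the strains and 3.53 in the lines, and its difference was not called (adjusted p = 0.28 by limma). These genes were singled out after their values were seen.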

How the data were processed

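For each RAE230A array the authors deposited log2 signals, 1 per probe set, made, as the submitters noted for processing, with R 2.3.1, affy 1.10.0 and GCRMA 2.4.1, a method that corrects background by probe sequence and normalizes between arrays. The paper also describes RMA with an Entrez-based probe map, a step not repeated here. 

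The 15923 probe sets include 57 controls, which were dropped. A single symbol was given for 12783, several for 312 and none for 2771, and 12748 were matched by Entrez ID to RefSeq. The probe set brightest on average in these 16 arrays stood for each of 10411 genes, with no filter on low values. limma 3.58.1 in R 4.3.3 was fitted to the means of the 4 groups, with Benjamini-Hochberg adjustment over all genes. The lines were fitted likewise, and the difference between the pairs in 1 fit of 32 arrays. The number of arrays limits the precision (12 residual degrees of freedom; median SE of the interaction 0.13). Named genes are the called ones, called list members, the AHR-inducible list with Ahr and Arnt, and the study's RT-PCR genes; others are said to be chosen by their values. Members and lists were chosen with earlier results of these data known. The fit was tested on simulated data. Scan days (an index of the days in the scanner's experiment files), an 8-group fit, other normalizations and leaving out each array were tried as alternatives. The 8 arrays taken at 3 h were not analysed here. Arrays were mapped to rats by the labels, which do not name litters, so p-values measure the spread between these rats.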

Additional observations from a re-analysis of the deposited data

Results flagged for a closer look

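The difference between L-E and H/W was called by the interaction test itself for Ackr3 (2.24), Slc17a1 (-1.32), Ttpa (-0.87), Arhgef11 (-0.63), Exoc3 (0.96), Cpb2 (0.49), Lig3 (-0.75), Plrg1 (0.80) and Klk1c9 (0.67), as log2 differences of response. For Ttpa the interaction in the strains also differed from that in the lines, by -1.01.

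Single rats were set apart from the other 3 of their group in 13 of 136 groups examined (34 genes in 4 groups), where chance flags about 1 in 20. The rule takes the gap relative to the range of the group, so some gaps were small in log2, as for Lig3 and Pik3r1. H/W corn oil replicate 3 was high for Cyp1a1 (8.60, others 2.38 to 2.89) and Cyp1a2 (14.29, others 13.94 to 13.96). H/W TCDD replicate 3 was high for Cyp7a1 (10.38, others 3.00 to 3.57) and Elovl6 (6.64, others 5.66 to 5.81), and H/W TCDD replicate 2 was low for Maf (7.94, others 8.58 to 8.70). In L-E TCDD rats, replicate 3 was high for Ackr3 (6.16, others 5.18 to 5.30), replicate 1 high for Lig3 (5.95, others 5.89) and low for Sod1 (13.30, others 13.48 to 13.50), and replicate 2 low for Nfe2l2 (11.18, others 12.05 to 12.18). In L-E corn oil rats, replicate 1 was high for Cyp1b1 (3.79, others 3.35 to 3.39), replicate 4 for Per2 (4.29, others 2.89 to 2.91), and replicate 3 for Tiparp (6.85, others 5.64 to 5.84) and Pik3r1 (2.38, others 2.22 to 2.24).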

How the results depend on the processing

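The count of 9 genes with a called interaction (5 positive, 4 negative) was unstable, while no named gene with a called interaction changed sign. It became 287 (209 and 78) with array weights, 28 (16 and 12) in 1 fit over 8 groups, where Cpb2, Klk1c9, Exoc3, Plrg1 and Lig3 lost their call, 5 (2 positive) with limma's trend, 3 (1 and 2) at an adjusted p under 0.01, and 6 (3 positive) with robust variances. Averaging probe sets within genes gave 8, with Exoc3 and Lig3 no longer called. Every probe set gave 8 (3 positive) and centring on the median 10 (2 and 8), a split further to the negative side. Alternatives chosen after seeing the data gave 5 (2 positive) on scan day 2 alone, and 41 (26 and 15) without H/W corn oil replicate 3 and the lowest 40% of genes. Leaving out 1 array gave 3 to 103 genes, 1 to 84 positive and 2 to 19 negative. Without that array it was 103. It was 3 or 4 without L-E TCDD replicate 3, L-E corn oil replicate 1 or 2, H/W TCDD replicate 1 or 4, or H/W corn oil replicate 4, and 18 and 15 without L-E TCDD replicates 1 and 2. The cause was not tested.

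The count of 852 genes called in L-E was 430 at an adjusted p under 0.01 and 351 on scan day 2 alone, and 652 to 894 when 1 array was left out. The count of 286 in H/W was 1630 with array weights, 125 at an adjusted p under 0.01, 439 in 1 fit over 8 groups, 34 on scan day 2 alone, 549 without H/W corn oil replicate 3 and the lowest 40%, 159 on the 8 H/W arrays alone, and 176 (without H/W TCDD replicate 1) to 2217 (without H/W corn oil replicate 3) when 1 array was left out.

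With the replicate number as a block, 1 gene was called (1 positive, 0 negative), Ackr3, against 9 without it, and 1074 genes had an unadjusted p under 0.05. The numbers come from the labels, which state no pairing, and same-numbered rats did not deviate together throughout (correlations of -0.12 to 0.30 over 1875 genes; 1 or 2 of 4 arrays correlated best with their own number), so the block was not used. With the scan day as a block 10 genes were called, 6 of them among the 9. Scan day 1 held 1 array of each group, day 2 held 10 arrays and day 3 held 1 TCDD and 1 corn oil array of H/W. The values of the 9 genes kept their sign on day 1 and on day 2, for example 2.35 and 2.24 for Ackr3, -1.66 and -1.19 for Slc17a1 and -0.61 and -1.08 for Ttpa. The 9 were called on these same arrays, so the signs are not a separate check. On day 2 alone Ttpa was called of the 9.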
